A study of Homo sapiens with 6 samples.

Results

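The genes described are 6 targets of the transcription factor NRF2 (GCLC, GCLM, NQO1, HMOX1, TXNRD1 and SRXN1) and 4 aldo-keto reductases (AKR1B10, AKR1C1, AKR1C2 and AKR1C3). They are known NRF2 targets given as a list of names and looked up by symbol, through GENCODE v44, among the 67140 Ensembl gene identifiers of the count table. All 10 were found, and all 10 were among the 19254 genes that passed edgeR's filter on low counts. AKR1C2 met that filter through its 3 shCtrl samples alone, so that its passing already favoured a lower level in the other group.

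The cells were KYSE150, a long-used human line from a squamous carcinoma of the esophagus, grown in RPMI medium with serum. They carried either a control hairpin (shCtrl, 3 samples) or a hairpin against the long noncoding RNA AC007128.1 (shAC007128.1, 3 samples). These groups follow the sample titles, since the free text of every sample names shCtrl under growth and shAC007128.1 under treatment. The hairpins were introduced by lentivirus, stable cells were kept with puromycin, and each group stands for a single hairpin. Poly-A RNA was read as paired-end libraries, and the counts per shCtrl library summed to 72354339, 78610457 and 65140326 for replicates 1, 2 and 3, those per shAC007128.1 library to 57880388, 55764405 and 60158244. Nothing in the labels says that the 3 samples of a group came from separate cultures, so p-values measure only the spread between these samples, which may be technical.

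NRF2, encoded by NFE2L2, is held at a low level by KEAP1, which hands it to a CUL3 and RBX1 ubiquitin ligase. When oxidants or electrophiles modify KEAP1, NRF2 accumulates, pairs with a small MAF protein and binds antioxidant response elements near genes for glutathione synthesis, thioredoxin reduction, quinone reduction, heme breakdown and carbonyl reduction. The pathway is often switched on in squamous carcinomas of the esophagus and lung, where mutations of NFE2L2 or KEAP1 are common, and high AKR1B10 and AKR1C levels are among its best known markers.

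The targeted gene was checked first. AC007128.1 (chromosome 7, 8262264 to 8344516, hg38) had 69, 33 and 53 counts in shCtrl replicates 1, 2 and 3, and 18, 37 and 15 in shAC007128.1 replicates 1, 2 and 3. The groups overlapped, because shAC007128.1 replicate 2 lay above shCtrl replicate 2. The fit gave a log2 fold change of -0.77, with a standard error (SE) of 0.51 and an adjusted p of 0.271 from edgeR, and a two-sided exact permutation test of the scaled level gave p = 0.2, where 3 samples against 3 cannot go below 0.1. The log2 fold change was -0.52 without shAC007128.1 replicate 3, and over 14 alternatives it ran from -1.29 (without shAC007128.1 replicate 2) to -0.51 (without shCtrl replicate 1), with adjusted p of 0.0959 to 0.562. Of its 1853 exonic bases 782 are shared with other genes, 384 of them with ENSG00000272328 on the same strand, which was counted at 0.196 to 0.360 CPM. A lower level of the target was not detected in these counts at this depth. The study itself reports that its hairpin lowered AC007128.1 RNA, as measured by qPCR.

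Among replicates, shAC007128.1 replicate 3 stood apart. The chi-square per gene between its counts and those of the other 2 samples of its group was 80.7 and 102, against 36.9 to 41.5 for the other pairs of samples of a group, so values without that library are given below. The cells carried all 9 squamous markers examined at a mean of at least 1 CPM (counts scaled to library size with TMM factors) in at least 1 group, with KRT5 the most abundant and SOX2 at 0.434 CPM in shCtrl cells and 4.59 in shAC007128.1 cells. KRT14, KRT6A and SOX2 were called higher and DSG3 lower. The summed squamous markers were 1544, 1532 and 1541 CPM in shCtrl samples and 2888, 2587 and 2097 in shAC007128.1 samples. Of the leukocyte markers, PTPRC, CD3E and LYZ were under 1 CPM in every sample. CD68 stood at 67.2, 65.4 and 58.7 CPM in shCtrl samples and 23.5, 13.5 and 15.5 in shAC007128.1 samples, and was called lower (log2 fold change -1.87). Of the 5 markers of simple or glandular epithelium, CDX2 was at 0, KRT20 and MUC2 were under 1 CPM and KRT8 was the most abundant. KRT8 was called higher, from 675 to 2439 CPM (log2 fold change 1.85). The sum of the 5 markers was 1317, 1302 and 1254 CPM in shCtrl samples and 4034, 3759 and 3095 in shAC007128.1 samples. Of 5 fibroblast markers 2 reached 1 CPM, of 4 endothelial markers 1 did, and of 4 hepatocyte markers 0 did. The fibroblast marker LUM was called higher, from 1.07 to 4.71 CPM (log2 fold change 2.14), and PDGFRB was called lower, from 0.470 to 0.154 CPM (-1.60). The part of any of these markers in the results was not tested.

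Of the 10 genes, 5 were called lower in shAC007128.1 cells (GCLC, HMOX1, SRXN1, AKR1C1 and AKR1C2), against 10.1% of all genes tested, and 1 was called higher (AKR1B10), against 5.57%. Leaving out AKR1C2, which passed the filter through shCtrl samples alone, 4 of 9 were called lower, and 6 of 9 were lower by adjusted p alone. The count of 5 lower was 4 without shCtrl replicate 3 or shAC007128.1 replicate 1, 3 without shCtrl replicate 1, shAC007128.1 replicate 2 or shAC007128.1 replicate 3, and 2 without shCtrl replicate 2. GCLC, HMOX1 and, as higher, AKR1B10 were called in each of these. With limma-voom, the replicate block, counts divided by 4 or 10 counts required in every sample it was 4, and with glmTreat against a fold of 1.5 it was 3. A gene was called when edgeR's quasi-likelihood test, adjusted by Benjamini-Hochberg over all 19254 genes, gave 0.05 or less and the fold change was 2 or more. By adjusted p alone NQO1 and TXNRD1 joined them, making 7 lower, against 19.8% of all genes, and 1 higher, against 21.0%. GCLM and AKR1C3 passed neither limit. The same 7 genes were lower in every shAC007128.1 sample than in any shCtrl sample, as were 28.2% of all genes tested, and AKR1B10 alone was higher in every one, as were 27.0%. The median log2 fold change was -0.82 over the 10 genes and -0.02 over all genes tested. AKR1C2, whose passing of the filter favoured a lower level, is among the 7 lower genes and in the median of the 10. Leaving it out, 6 of 9 were lower without overlap, and the middle log2 fold change of the 9 was that of TXNRD1, -0.64. Over the 6 NRF2 targets, which do not include AKR1C2, the median was -0.82. In bulk RNA, fewer cells with a transcript and less of it per cell cannot be told apart.

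**Figure D1:**
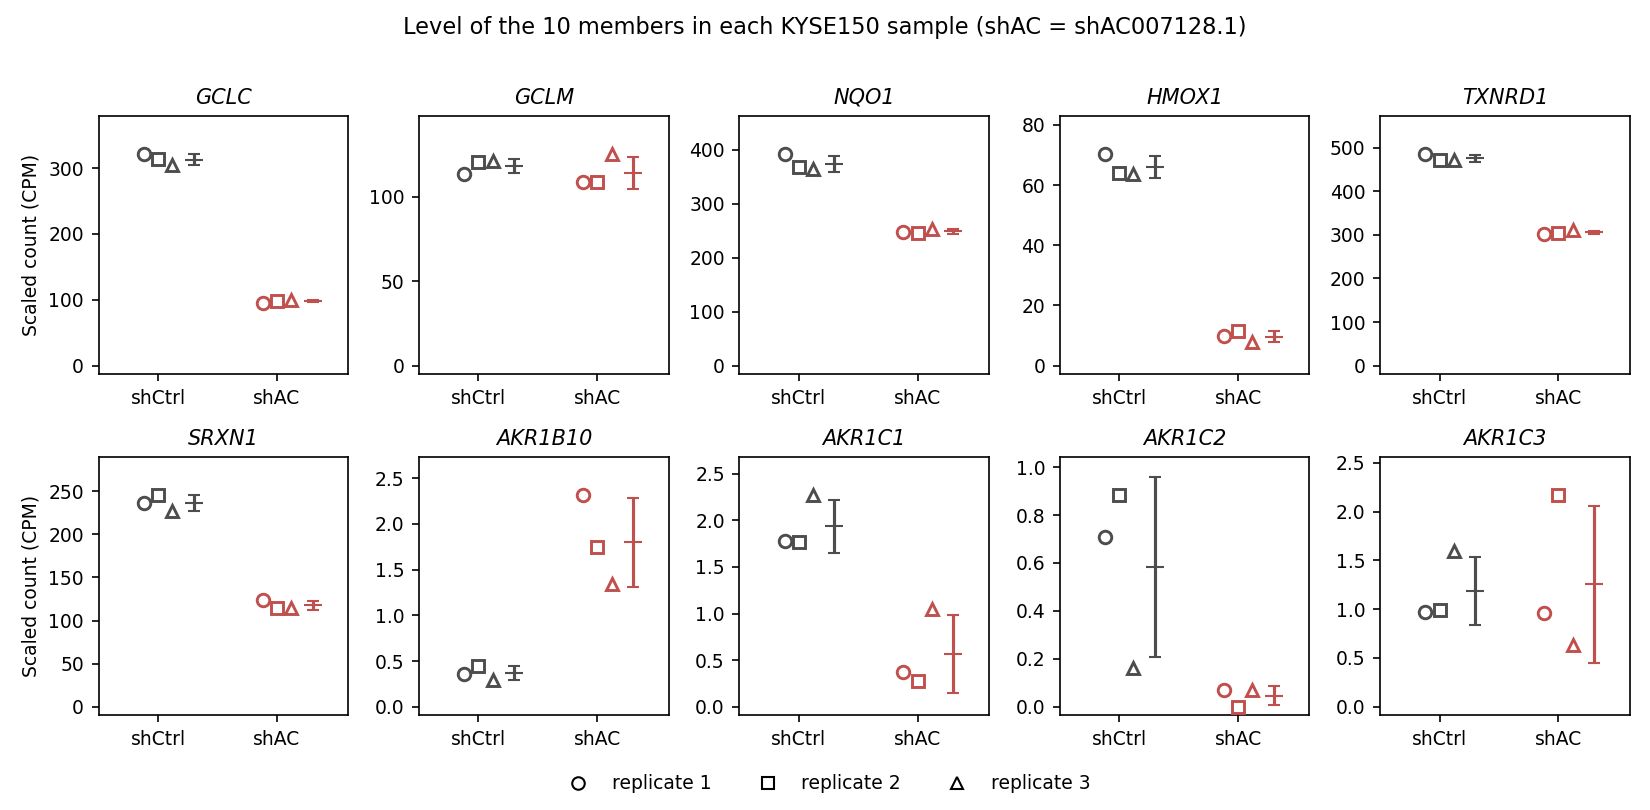
Scaled level (CPM, linear axes from 0) of the 10 genes in each KYSE150 sample; symbols mark replicates 1 to 3, and the bar beside them gives the mean and SD of 3 samples. GCLC went from 305 to 321 CPM in shCtrl samples to 95.8 to 99.5 in shAC007128.1 samples, whereas the groups overlapped for GCLM and AKR1C3.

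Glutathione synthesis came first among the roles. GCLC encodes the catalytic subunit of glutamate-cysteine ligase, the rate-limiting enzyme of glutathione synthesis, and GCLM encodes the modifier subunit that raises its efficiency. GCLC (ENSG00000001084, chromosome 6, 53497341 to 53616970) stood at 321, 313 and 305 CPM in shCtrl replicates 1, 2 and 3, and at 95.8, 98.4 and 99.5 in shAC007128.1 replicates 1, 2 and 3. All 3 shAC007128.1 samples were low and close to each other, far under the lowest shCtrl sample. GCLC fell to 31.3% of control, with a log2 fold change of -1.68 (SE 0.06, adjusted p = 1.60e-05 by edgeR), which was -1.70 without shAC007128.1 replicate 3. Of its 8618 exonic bases 834 are shared with other genes, GCLC-AS1 on the opposite strand and ENSG00000231683 on the same strand, whose highest samples were at 1.15 and 0.505 CPM.

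GCLM (ENSG00000023909, chromosome 1, 93885199 to 93909456) gave 114, 121 and 121 CPM in shCtrl samples and 109, 109 and 125 in shAC007128.1 samples. The highest value of all belonged to shAC007128.1 replicate 3 and the others lay just under the shCtrl range, so the groups overlapped. Its log2 fold change was -0.05 (SE 0.08, adjusted p = 0.652 by edgeR), with 2 standard errors on either side reaching from -0.22 to 0.11, and it was -0.13 without shAC007128.1 replicate 3. Per kilobase of annotated exon, the ratio of GCLC to GCLM was 1.78, 1.64 and 1.59 in shCtrl replicates 1, 2 and 3, and 0.554, 0.570 and 0.501 in shAC007128.1 replicates 1, 2 and 3. On that scale the catalytic subunit's transcript was the more abundant of the pair in every shCtrl sample and the less abundant in every shAC007128.1 sample. With the length of the longest transcript in place of the exon union the ratio was 3.42 ± 0.207 (SD, n = 3) and 1.11 ± 0.0738, so that only the fall of the ratio, not its crossing of 1, holds on both lengths.

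Promoter sequence was examined because GCLC and GCLM are textbook NRF2 targets that moved differently here. RefSeq promoter windows, from 250 bases before to 50 after a start, were matched for 8 of the 10 genes (GRCh38.p14). The core of the antioxidant response element was searched on both strands as TGACNNNGC, and it occurred in 13.3% of all 35116 windows of 300 bases and in a window of 16.1% of 27305 genes. Of the 8 genes, 2 had a match. GCLM had a match 34 bases before its start and TXNRD1 had matches in the windows of both of its starts, and none of these overlapped an AP-1 element, searched as TGANTCA. The windows of GCLC, NQO1, SRXN1, AKR1C1, AKR1C2 and AKR1C3 held no such letters, which says nothing of elements farther away. The windows of GCLC (chr6:53545082-53545351, minus strand), GCLM (chr1:93909411-93909680, minus strand) and the downstream start of TXNRD1 (chr12:104286782-104287051, plus strand) are shown without the last 30 bases, with each match in capitals.
GCLC: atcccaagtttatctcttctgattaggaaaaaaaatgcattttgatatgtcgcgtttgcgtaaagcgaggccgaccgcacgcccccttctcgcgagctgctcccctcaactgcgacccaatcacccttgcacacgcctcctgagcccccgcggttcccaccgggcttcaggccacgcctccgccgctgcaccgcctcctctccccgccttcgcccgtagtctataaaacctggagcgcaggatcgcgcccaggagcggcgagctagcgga
GCLM: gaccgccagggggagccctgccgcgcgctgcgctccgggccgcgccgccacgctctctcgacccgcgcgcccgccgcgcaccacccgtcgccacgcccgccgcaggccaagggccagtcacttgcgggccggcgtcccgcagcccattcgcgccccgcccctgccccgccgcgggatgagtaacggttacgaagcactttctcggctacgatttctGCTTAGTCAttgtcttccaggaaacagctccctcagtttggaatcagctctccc
TXNRD1: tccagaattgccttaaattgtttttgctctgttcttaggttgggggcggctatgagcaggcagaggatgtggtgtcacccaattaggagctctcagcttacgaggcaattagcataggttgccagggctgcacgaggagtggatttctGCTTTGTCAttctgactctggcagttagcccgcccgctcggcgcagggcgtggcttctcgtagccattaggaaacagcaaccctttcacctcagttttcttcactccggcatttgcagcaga

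HMOX1 encodes heme oxygenase, which opens heme into biliverdin, iron and carbon monoxide, and is strongly induced by NRF2 once the repressor BACH1 leaves its elements. HMOX1 (ENSG00000100292, chromosome 22, 35380361 to 35394214) stood at 70.2, 64.2 and 63.6 CPM in shCtrl replicates 1, 2 and 3, and at 9.87, 11.4 and 7.69 in shAC007128.1 replicates 1, 2 and 3. The 2 ranges were far apart, and shAC007128.1 replicate 3 was the lowest of all. HMOX1 fell to 14.6% of control (log2 fold change -2.78, SE 0.15, adjusted p = 3.62e-05 by edgeR). The value was -2.65 without shAC007128.1 replicate 3. Among the 10 genes AKR1C2 alone had a larger negative log2 fold change, from counts near 0.

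NQO1 encodes a quinone reductase that carries out a reduction in a single step and so spares the cell semiquinones. NQO1 (ENSG00000181019, chromosome 16, 69706996 to 69726668) measured 392, 368 and 365 CPM in shCtrl samples and 248, 246 and 254 in shAC007128.1 samples. Every shAC007128.1 sample was lower than every shCtrl sample, with little scatter inside either group. NQO1 fell to 66.5% of control (log2 fold change -0.59, SE 0.06, adjusted p = 0.000347 by edgeR), which is short of the fold limit, and the log2 fold change was -0.61 without shAC007128.1 replicate 3. Of its 2971 exonic bases 575 are shared with ENSG00000261602 on the opposite strand, whose highest sample was at 0.710 CPM.

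TXNRD1 and SRXN1 serve the thiol systems. TXNRD1 encodes the cytosolic thioredoxin reductase, a selenoprotein, and SRXN1 encodes sulfiredoxin, which restores peroxiredoxins after their overoxidation. TXNRD1 (ENSG00000198431, chromosome 12, 104215779 to 104350307) gave 485, 471 and 471 CPM in shCtrl samples and 303, 304 and 310 in shAC007128.1 samples. It was lower in all 3 shAC007128.1 samples, and with a log2 fold change of -0.64 (SE 0.05, adjusted p = 0.000157 by edgeR) it passed the test but not the fold limit. Without shAC007128.1 replicate 3 the value was -0.66.

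SRXN1 (ENSG00000271303, chromosome 20, 646615 to 653200) gave 237, 245 and 227 CPM in shCtrl replicates 1, 2 and 3, and 124, 115 and 114 in shAC007128.1 replicates 1, 2 and 3. The groups were well separated, and the mean in shAC007128.1 cells was 49.8% of control. Its log2 fold change of -1.01 (SE 0.07, adjusted p = 7.10e-05 by edgeR) was at the edge of the fold limit, and the call was lost without shCtrl replicate 2 (-0.98), without shAC007128.1 replicate 2 (-0.99) and without shAC007128.1 replicate 3 (-0.99), while the adjusted p held in each. ENSG00000270299, annotated on the same strand, covers 2292 of the 2528 exonic bases of SRXN1, so reads of the pair cannot be separated. The highest sample of that gene was at 1.13 CPM.

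**Figure D2:**
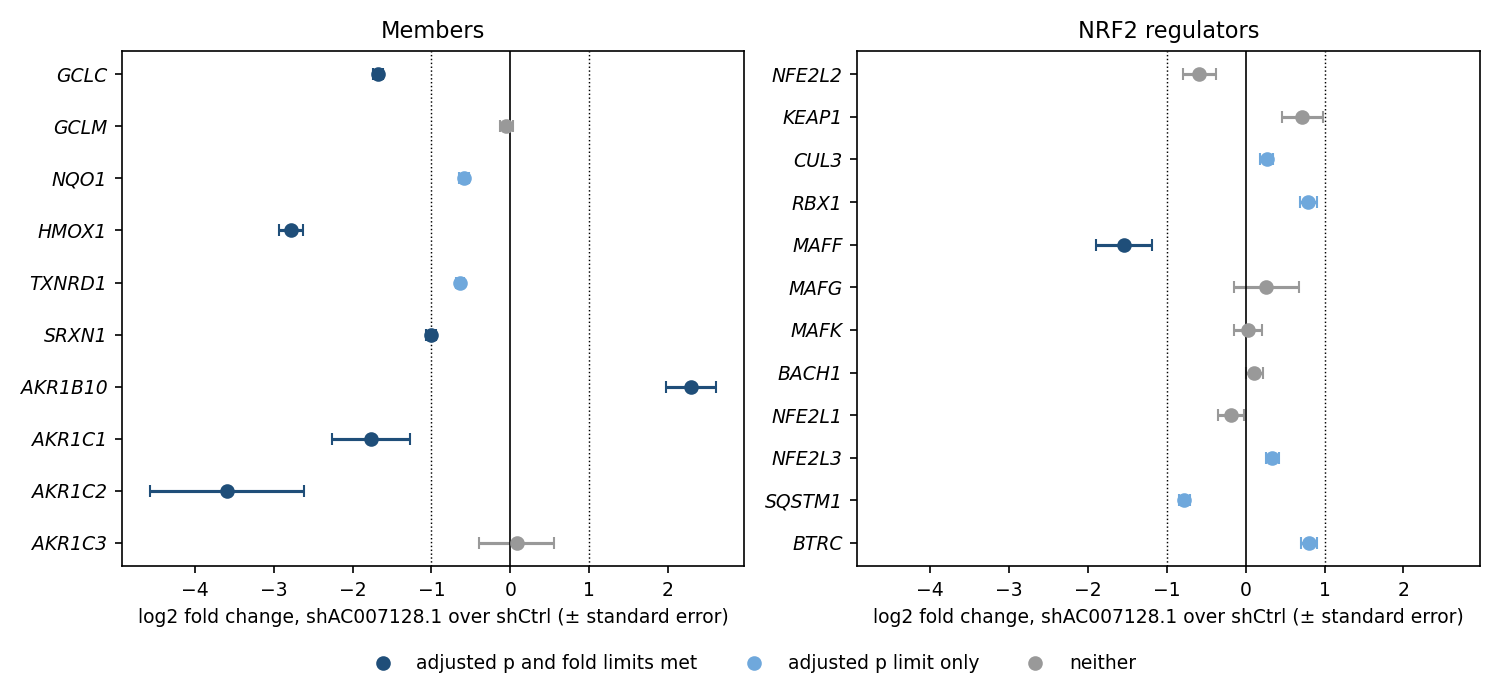
Log2 fold change, shAC007128.1 over shCtrl, with its standard error (n = 3 samples a group) for the 10 genes and for 12 regulators of NRF2; dotted lines mark a fold of 2 and colours mark which limits were met. HMOX1 lies at -2.78 and GCLC at -1.68, GCLM lies at -0.05, and among the regulators MAFF alone passes both limits, at -1.54.

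The aldo-keto reductases are NADPH-dependent enzymes that reduce aldehydes and ketones. AKR1B10 acts on retinal and lipid aldehydes, and AKR1C1, AKR1C2 and AKR1C3 act on steroids, prostaglandins and lipid aldehydes. All 4 were low in these cells, where a nominal limit of detection, set at 3 counts, was 0.0373 to 0.0546 CPM per sample. Their counts in a sample ran from 0 to 154, against at least 447 for each of the other 6 genes. Such a limit covers counting error only.

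AKR1B10 (ENSG00000198074, chromosome 7, 134527567 to 134541412) had 26, 36 and 20 counts in shCtrl replicates 1, 2 and 3, or 0.355, 0.447 and 0.295 CPM, and 130, 96 and 78 counts in shAC007128.1 replicates 1, 2 and 3, or 2.31, 1.75 and 1.34 CPM. It was higher in all 3 shAC007128.1 samples than in any shCtrl sample, with replicate 3 the lowest of them. AKR1B10 rose to 492% of control (log2 fold change 2.29, SE 0.32, adjusted p = 0.00130 by edgeR), and leaving out each sample in turn gave 2.07 to 2.46 (2.45 without shAC007128.1 replicate 3). It was the single member that moved up, and it did so from a very low level. Its relative AKR1B15, next to it on chromosome 7, had at most 10 counts in a sample, and the coding sequences of the pair share 17 of the 849 windows of 100 bases that AKR1B10 holds.

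The 3 AKR1C genes lie side by side on chromosome 10 and resemble each other closely, so that reads can be split between them. The coding sequences of AKR1C1 and AKR1C2, of 969 bases each, are equal at 950 positions (98.0%), AKR1C1 and AKR1C3 at 886 (91.4%), and AKR1C1 and AKR1C4 at 858 (88.5%). Of the 870 windows of 100 bases in AKR1C1, 164 occur unchanged in AKR1C2 and 19 in AKR1C3. The likeness is shown by the first coding exon of each gene in GENCODE v44 (hg38), from chr10:4963445-4963528 on the plus strand for AKR1C1, chr10:5003752-5003835 on the minus strand for AKR1C2, chr10:5094445-5094528 on the plus strand for AKR1C3 and chr10:5196868-5196951 on the plus strand for AKR1C4. Capitals mark the bases that differ from AKR1C1, of which AKR1C2 has 1, AKR1C3 has 10 and AKR1C4 has 11.
AKR1C1: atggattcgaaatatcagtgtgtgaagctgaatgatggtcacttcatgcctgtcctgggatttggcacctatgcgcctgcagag
AKR1C2: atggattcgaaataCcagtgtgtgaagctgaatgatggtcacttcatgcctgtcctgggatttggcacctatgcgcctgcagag
AKR1C3: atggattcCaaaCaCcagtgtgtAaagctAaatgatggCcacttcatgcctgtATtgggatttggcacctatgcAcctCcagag
AKR1C4: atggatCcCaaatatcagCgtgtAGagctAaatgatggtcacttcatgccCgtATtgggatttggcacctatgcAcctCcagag

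The resemblance reaches into the promoters. Set without gaps at a best offset of 4 bases, the RefSeq windows of AKR1C1 and AKR1C2 were equal at 264 of 296 positions (89.2%). In the same way AKR1C1 and the first window of AKR1C3 were equal at 142 of 296 (48.0%), and AKR1C1 and the other AKR1C3 window at 157 of 291 (54.0%). A comparison without gaps loses register after an inserted or lost base, so none of these shares fully measures how alike the windows are. AKR1C1 has gaggaagaaagaaacattt near its start where AKR1C2 has gaggaagaaacattt, so the 89.2% also counts positions past a gap. The windows of AKR1C1 (chr10:4963165-4963434, plus strand) and AKR1C2 (chr10:5003838-5004107, minus strand) are shown without the last 30 bases, so that their likeness can be seen.
AKR1C1: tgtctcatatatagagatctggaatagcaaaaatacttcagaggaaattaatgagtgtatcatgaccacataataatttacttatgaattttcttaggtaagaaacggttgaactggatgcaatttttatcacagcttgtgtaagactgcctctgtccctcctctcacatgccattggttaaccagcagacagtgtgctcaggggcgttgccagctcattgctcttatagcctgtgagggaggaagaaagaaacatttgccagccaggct
AKR1C2: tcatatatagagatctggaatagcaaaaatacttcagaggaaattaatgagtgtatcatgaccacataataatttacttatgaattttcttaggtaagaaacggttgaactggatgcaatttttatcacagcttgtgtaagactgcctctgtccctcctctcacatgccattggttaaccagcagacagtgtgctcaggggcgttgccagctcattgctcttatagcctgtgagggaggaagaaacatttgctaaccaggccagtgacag

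AKR1C1 (ENSG00000187134, 4963253 to 4983283) stood at 1.78, 1.76 and 2.27 CPM in shCtrl replicates 1, 2 and 3, and at 0.373, 0.273 and 1.05 in shAC007128.1 replicates 1, 2 and 3. The groups did not overlap, but shAC007128.1 replicate 3 lay well above the other 2. Its mean fell to 29.2% of control (log2 fold change -1.77, SE 0.49, adjusted p = 0.0246 by edgeR). The call held without shAC007128.1 replicate 3 (-2.58, adjusted p = 0.00139) and was lost without any of the other 5 samples, where log2 fold changes ran from -1.84 (without shCtrl replicate 2) to -1.43 (without shAC007128.1 replicate 2). The edgeR adjusted p was 0.0562, 0.0557 and 0.0754 without shCtrl replicates 1, 2 and 3, and 0.0753 and 0.0587 without shAC007128.1 replicates 1 and 2. AKR1C1 was also not called with glmTreat against a fold of 1.5.

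AKR1C2 (ENSG00000151632, 4987775 to 5018031) had 52, 71 and 11 counts in shCtrl replicates 1, 2 and 3, and 4, 0 and 4 in shAC007128.1 replicates 1, 2 and 3. Low values in the table pile up at multiples of 4, and with every 4 counts taken as 1 those of shAC007128.1 cells were 1, 0 and 1. The groups did not overlap, although shCtrl replicate 3 lay much nearer to the shAC007128.1 samples than to the other 2 of its group. The log2 fold change was -3.59 (SE 0.98, adjusted p = 0.0228 by edgeR). The call was lost without shCtrl replicate 1 (-3.43, adjusted p = 0.0719), shCtrl replicate 2 (-3.17, adjusted p = 0.0897) or shAC007128.1 replicate 3 (-3.97, adjusted p = 0.0514), all from edgeR, with limma-voom (adjusted p = 0.0798), with the replicate block (-3.39, adjusted p = 0.0774) and with glmTreat against a fold of 1.5. Over the 12 alternatives that gave a value the adjusted p was 0.00152 to 0.0897.

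AKR1C3 (ENSG00000196139, 5035354 to 5107686) had 71, 80 and 108 counts in shCtrl replicates 1, 2 and 3, and 54, 119 and 37 in shAC007128.1 replicates 1, 2 and 3. Scaled, the groups averaged 1.19 ± 0.352 and 1.25 ± 0.806 CPM (SD, n = 3). Both the highest and the lowest sample belonged to shAC007128.1, and the groups overlapped. Its log2 fold change was 0.08 (SE 0.47, adjusted p = 0.907 by edgeR), and it was -0.57 without shAC007128.1 replicate 2 and 0.39 without shAC007128.1 replicate 3. The counts of the 3 AKR1C genes were also summed, because that total does not depend on how reads counted once were split among them. Reads left out or counted more than once would still change the total, and their handling is not given in the sources used here. The sum was 3.46, 3.64 and 4.02 CPM in shCtrl replicates 1, 2 and 3, and 1.41, 2.44 and 1.75 in shAC007128.1 replicates 1, 2 and 3. Summed, the shAC007128.1 samples were lower without overlap, at 50.3% of control.

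Of the 10 other aldo-keto reductases, AKR1C4, AKR1C8 and AKR1E2 had no count in any sample, where 3 counts set the nominal limit. AKR1B15 and AKR1D1 were too low to be tested. AKR1D1 had 4 to 13 counts in shCtrl samples and 0 in each shAC007128.1 sample. The other 5 were tested, and edgeR, DESeq2 and limma-voom each called 0 in either direction, beside 10.1% of all tested genes lower and 5.57% higher in edgeR. In edgeR 2 had an unadjusted p under 0.05, a limit for which the share of all genes was not counted. They were AKR1A1 and AKR1B1, the broadly expressed aldehyde and aldose reductases. Both passed the adjusted p limit as lower, as did 19.8% of all tested genes, while 0 passed it as higher, beside 21.0%. AKR1A1 went from 98.8 ± 5.18 CPM (SD, n = 3) to 55.8 ± 6.44, a log2 fold change of -0.82 (edgeR adjusted p = 0.000846). AKR1B1 went from 102 ± 4.33 to 60.6 ± 4.41 (-0.76, edgeR adjusted p = 0.000493). AKR7A2 measured 34.8 ± 1.65 and 36.6 ± 12.7 CPM, and it passed the test only without shAC007128.1 replicate 3 (log2 fold change 0.32, edgeR adjusted p = 0.0220). AKR7A3 and AKR7L stayed under 1 CPM in every sample.

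Levels can be compared between genes only per length. In CPM per kilobase of annotated exon, shCtrl cells held NQO1 at 126 ± 5.01 (SD, n = 3), SRXN1 at 93.4 ± 3.66, TXNRD1 at 70.9 ± 1.16, GCLC at 36.3 ± 0.949, HMOX1 at 28.6 ± 1.59 and GCLM at 21.8 ± 0.776. Each of these differed from its neighbour in the order by more than the SDs. The aldo-keto reductases followed far below, with AKR1C3 at 0.303 ± 0.0900, AKR1C1 at 0.221 ± 0.0328, AKR1B10 at 0.206 ± 0.0434 and AKR1C2 at 0.0961 ± 0.0618, and among the first 3 of them neighbours did not differ beyond their SDs on that length. In shAC007128.1 cells GCLM, at 21.0 ± 1.73, ranked above GCLC (11.4 ± 0.222) and HMOX1 (4.18, from 9.64 ± 1.85 CPM). SRXN1 at 46.5 ± 2.02 and TXNRD1 at 45.6 ± 0.547 did not differ beyond their SDs there. AKR1B10, at 1.02 ± 0.275, became the highest of the 4 aldo-keto reductases. With the length of the longest transcript TXNRD1 ranked above SRXN1 in both groups (120 ± 1.96 against 93.4 ± 3.66 in shCtrl cells), GCLC stayed above GCLM in shAC007128.1 cells (25.9 ± 0.505 against 23.4 ± 1.93), and the other orders given were the same. On that length AKR1C3 (0.843 ± 0.250) and AKR1C1 (0.296 ± 0.0440) differed beyond their SDs in shCtrl cells, and AKR1B10 (1.11 ± 0.301) and AKR1C3 (0.892 ± 0.573) did not in shAC007128.1 cells.

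**Figure D3:**
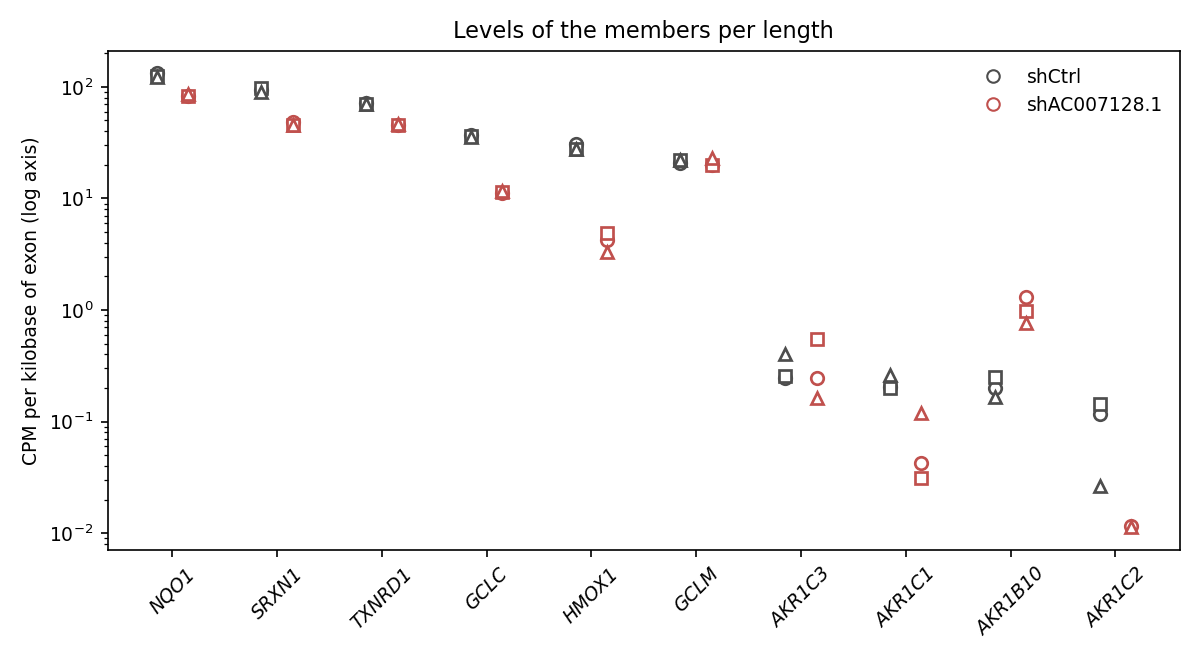
Level of the 10 genes in CPM per kilobase of annotated exon, on a log axis, 1 symbol per sample above 0 (circle, square and triangle for replicates 1, 2 and 3). Group means of the 6 NRF2 targets lie between 4.18 and 126, and those of the aldo-keto reductases between 0.00766 and 1.02. AKR1C2 in shAC007128.1 replicate 2 was at 0 and is not drawn.

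Of 12 regulators of NRF2, MAFF alone was called lower, beside 10.1% of all tested genes, and 0 were called higher by edgeR, DESeq2 or limma-voom, beside 5.57% in edgeR. In edgeR 3 were lower and 5 higher at an unadjusted p under 0.05, a limit for which the share of all genes was not counted. By adjusted p alone 2 were lower (MAFF and SQSTM1) and 4 higher (CUL3, RBX1, NFE2L3 and BTRC), beside 19.8% and 21.0% of all tested genes. MAFF encodes a small MAF protein, which partners NRF2 on DNA or, paired with its own kind, represses. It stood at 76.2, 28.6 and 76.7 CPM in shCtrl replicates 1, 2 and 3, and at 23.5, 19.2 and 19.6 in shAC007128.1 replicates 1, 2 and 3. MAFF was lower in all 3 shAC007128.1 samples, although shCtrl replicate 2 came near them. Its log2 fold change was -1.54 (SE 0.35, adjusted p = 0.0111 by edgeR). The other small MAF genes, MAFG and MAFK, had log2 fold changes of 0.26 and 0.03 and did not pass the test, and shCtrl replicate 1 was far from its group for MAFG (28.2 against 93.9 and 98.3 CPM).

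NFE2L2 itself gave 106, 93.7 and 152 CPM in shCtrl replicates 1, 2 and 3, and 61.2, 94.0 and 79.3 in shAC007128.1 replicates 1, 2 and 3. The groups overlapped by a hair, through shAC007128.1 replicate 2. Its log2 fold change of -0.59 (SE 0.22, adjusted p = 0.0649 by edgeR) did not pass the test, and 5747 of its 14975 exonic bases are shared with other genes, 3509 of them with HNRNPA3 on the opposite strand and 2037 with ENSG00000213963 on the same strand. HNRNPA3 was higher (log2 fold change 0.54, edgeR adjusted p = 0.000489) and ENSG00000213963 lower (-2.29, edgeR adjusted p = 0.000269), and their part in the counts of NFE2L2 was not tested. With DESeq2 its adjusted p was 0.0177, without shCtrl replicate 2 it was 0.0490 and with at least 10 counts required in every sample it was 0.0483, both from edgeR, within a range of 0.0177 to 0.192 over 14 alternatives.

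KEAP1 gave 33.3, 21.2 and 45.6 CPM in shCtrl replicates 1, 2 and 3, and 49.8, 62.4 and 52.5 in shAC007128.1 replicates 1, 2 and 3. All 3 shAC007128.1 samples were the higher ones, but the shCtrl samples were widely spread. The log2 fold change was 0.72 (SE 0.26, adjusted p = 0.0595 by edgeR), which did not pass, and the adjusted p was 0.0139 with DESeq2, 0.0387 with limma-voom and 0.0171 with edgeR without shCtrl replicate 3, where the log2 fold change was 1.01. Over 14 alternatives it ranged from 0.0139 to 0.163. The ligase partners RBX1 (log2 fold change 0.79, edgeR adjusted p = 0.00114) and CUL3 (0.26, edgeR adjusted p = 0.0321) rose, as did BTRC (0.81, edgeR adjusted p = 0.000829), the F-box protein of another route of NRF2 turnover. CUL3 no longer passed without shCtrl replicate 1, 2 or 3 (edgeR adjusted p = 0.110, 0.0833 and 0.112), without shAC007128.1 replicate 2 (0.0808), with library size only (0.0900), with no filter (0.116) or with the replicate block (0.0763), 7 of 14 alternatives, which gave 0.0286 to 0.116. SQSTM1, whose product p62 takes KEAP1 away to autophagy and which is itself an NRF2 target, fell from 826 ± 21.5 to 481 ± 38.1 CPM (SD, n = 3; log2 fold change -0.78, edgeR adjusted p = 0.000221). BACH1 and NFE2L1 did not pass the test, with log2 fold changes of 0.11 and -0.18. NFE2L3 rose by 0.34 on the log2 scale (edgeR adjusted p = 0.0172), with 1207 of its 4303 exonic bases shared with HNRNPA2B1 on the opposite strand. HNRNPA2B1 was itself higher (log2 fold change 0.98, edgeR adjusted p = 0.000256), and whether its reads were counted for NFE2L3 was not tested. NFE2L3 no longer passed without shCtrl replicate 1, 2 or 3 (edgeR adjusted p = 0.0529, 0.0664 and 0.0680) or with no filter on low counts (0.0529), over a range of 0.00529 to 0.0680.

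Of 30 other NRF2 targets 27 were tested. Of these 7 were called lower and 2 higher, beside 10.1% and 5.57% of all tested genes. By adjusted p alone 11 were lower and 6 higher, beside 19.8% and 21.0%, and the median log2 fold change was -0.09. SLC7A11, the cystine carrier that feeds glutathione synthesis upstream of GCLC, stood at 227, 236 and 217 CPM in shCtrl replicates 1, 2 and 3, and at 28.1, 28.3 and 36.5 in shAC007128.1 replicates 1, 2 and 3. No sample came near the other group. SLC7A11 fell to 13.7% of control (log2 fold change -2.87, SE 0.12, adjusted p = 1.73e-05 by edgeR), a value close to that of HMOX1. ABCC3, an exporter of glucuronide and glutathione conjugates, fell by 2.17 on the log2 scale (edgeR adjusted p = 3.61e-05), and PIR, an iron-binding nuclear protein, fell by 1.80 (edgeR adjusted p = 3.62e-05). PRDX1, the cytosolic peroxiredoxin that thioredoxin reduces, went the other way, from 238, 235 and 234 CPM in shCtrl replicates 1, 2 and 3 to 630, 590 and 630 in shAC007128.1 replicates 1, 2 and 3 (log2 fold change 1.39, edgeR adjusted p = 1.73e-05). Of its 1682 exonic bases 501 are shared with MMACHC on the opposite strand, which was lower (log2 fold change -0.87, edgeR adjusted p = 0.00417). CBR3, a carbonyl reductase, rose by 1.25 on the log2 scale (edgeR adjusted p = 0.00142). Of its 998 exonic bases 710 are shared with CBR3-AS1 on the opposite strand. CBR3-AS1 did not pass the test (log2 fold change -0.49, edgeR adjusted p = 0.111), and its part in the counts of CBR3 was not tested.

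The pathways next to GCLC, GCLM, TXNRD1 and SRXN1 were counted in the same way, beside 10.1% of all tested genes called lower and 5.57% called higher. Of the 22 tested genes of glutathione synthesis, reduction and use, 1 was called lower and 1 higher. CHAC1, which breaks glutathione down, fell from 34.6 ± 1.36 to 4.51 ± 1.21 CPM (SD, n = 3; log2 fold change -2.94, edgeR adjusted p = 6.58e-05), so that both a synthetic and a degradative gene of glutathione were lower. MGST2 rose by 1.02 on the log2 scale (edgeR adjusted p = 0.00135) and left the fold limit without shCtrl replicate 2 (0.93) or shCtrl replicate 3 (0.99). Among 15 thioredoxins, peroxiredoxins and sestrins 2 were called in each direction, and by adjusted p alone 3 were lower and 9 higher, beside 19.8% and 21.0% of all tested genes. SESN2 fell by 2.17 on the log2 scale (edgeR adjusted p = 2.37e-05) and SESN3 rose by 1.44 (edgeR adjusted p = 0.00200).

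PRDX5, NQO2 and PGLS were called lower, and each was lowest in shAC007128.1 replicate 3. PRDX5, a mitochondrial and peroxisomal peroxiredoxin, stood at 135, 117 and 60.8 CPM in shAC007128.1 replicates 1, 2 and 3, against 202 to 213 in shCtrl samples, and NQO2, the relative of NQO1, at 29.1, 27.8 and 16.5 against 49.1 to 51.0. Without replicate 3 the log2 fold change of PRDX5 went from -1.01 to -0.74, that of NQO2 from -1.03 to -0.82 and that of PGLS, of the pentose phosphate route, from -1.11 to -0.91, so that the fold limit was no longer met by any of them. PRDX5 also lost its call without shCtrl replicate 1 or shCtrl replicate 3 (edgeR adjusted p = 0.0536 and 0.0535). Of the 8 tested superoxide and peroxide enzymes, 1 was called lower (NQO2) and 2 higher, beside 10.1% and 5.57% of all tested genes. SOD2 was also on that list, but its symbol was not matched to an identifier in the count table, so it was not tested. SOD1 rose by 1.17 and CAT, catalase, by 1.41 on the log2 scale (edgeR adjusted p = 4.90e-05 and 5.19e-05).

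Around HMOX1, 10 genes of heme breakdown and iron storage were tested. TFRC alone was called higher, beside 5.57% of all tested genes, and 0 were called lower, beside 10.1%. TFRC, the transferrin receptor through which iron enters, rose from 143 ± 2.57 to 577 ± 43.5 CPM (SD, n = 3; log2 fold change 2.01, edgeR adjusted p = 1.60e-05), while HMOX1, which frees iron from heme, fell. By adjusted p alone 2 genes of that list were lower and 1 higher, beside 19.8% and 21.0% of all tested genes. The 2 lower genes were those of ferritin, FTL (log2 fold change -0.70, edgeR adjusted p = 0.000111) and FTH1 (-0.77, edgeR adjusted p = 0.000199). Of the 2004 exonic bases of FTH1, 1267 are shared with BEST1 on the opposite strand, whose part in the counts of FTH1 was not tested. Of the 13 tested genes of NADPH supply, the cofactor of NQO1, TXNRD1 and the aldo-keto reductases, PGLS alone was called lower, beside 10.1% of all tested genes. In that list 0 were called higher, beside 5.57%. By adjusted p alone 3 were lower and 6 higher, beside 19.8% and 21.0%.

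**Figure D4:**
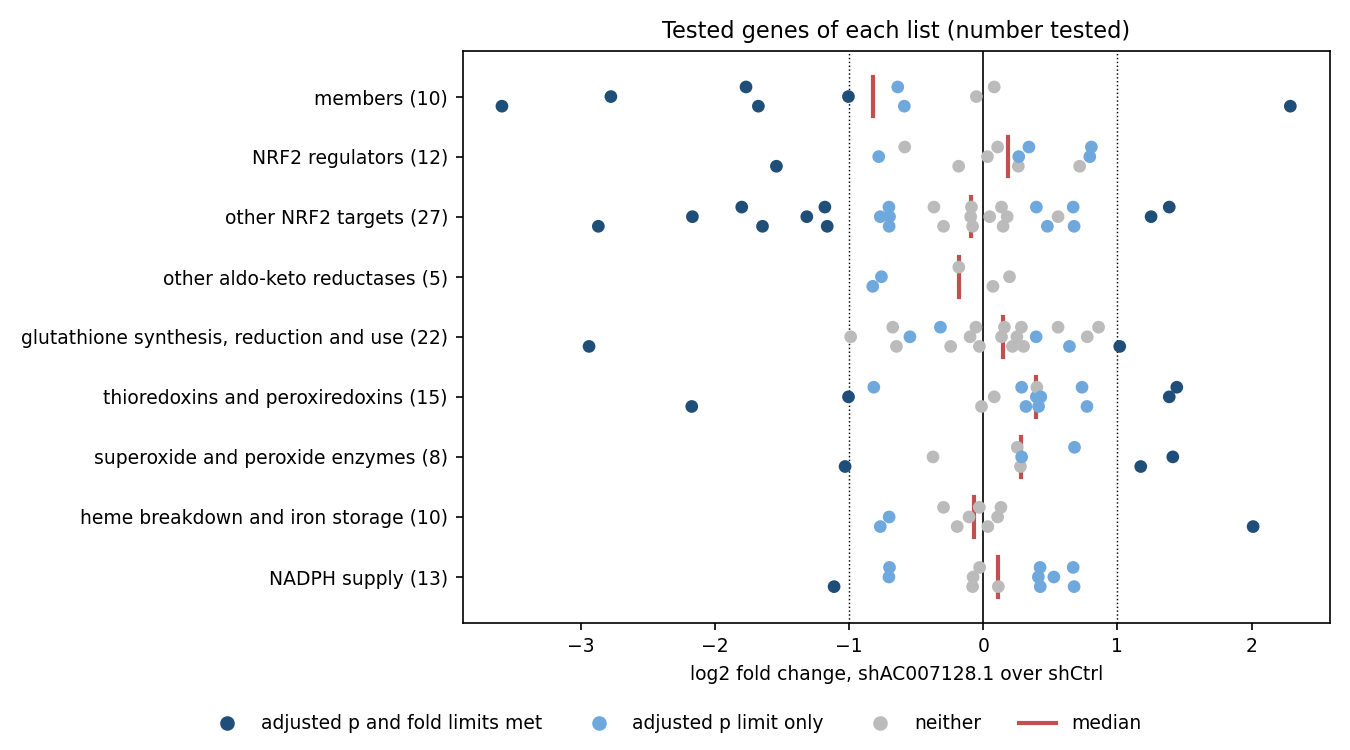
Log2 fold change, shAC007128.1 over shCtrl, of each tested gene in the 10 members and 8 related lists, 1 point per gene, with the number tested in parentheses and a bar at the median; dotted lines mark a fold of 2. The median is -0.82 for the members, with AKR1C2 included although it passed the filter through shCtrl samples alone. It is -0.09 for other NRF2 targets and between -0.18 and 0.40 for the other lists.

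The genes whose profile was nearest to a member's were taken by Euclidean distance between centred log2 CPM values over the 6 samples, among the 12435 genes whose mean log2 CPM was 1 or more. For AKR1B10 they were DENND2A at a distance of 0.39, KRT6C at 0.51 and GALNT2 at 0.52, which rose by 1.95, 2.25 and 2.07 on the log2 scale (edgeR adjusted p = 0.000362, 0.000679 and 2.29e-05). Because these genes were chosen for their likeness to AKR1B10 over the same 6 samples, their rise and p-values are no separate result. For AKR1C2, whose counts were near 0, the nearest were IL7R at 1.76, TMOD2 at 1.80 and SSC4D at 1.84, all much farther from it.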

How the data were processed

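The deposited values are estimated counts per gene (expected_counts), whole numbers in which low values pile up at multiples of 4. The authors filtered reads and aligned them with TopHat to the human genome; the study's methods and the processing notes differ on its version, and the notes list a mouse build beside the human one. How counts were made, the annotation and strand use are not given in the sources used here. Genes were filtered with filterByExpr, scaled by TMM (factors 0.967 to 1.04) and tested with edgeR 4.0.16 in R 4.3.3 (quasi-likelihood F test, 3 samples against 3). Benjamini-Hochberg adjustment covered all 19254 genes. Standard errors are the log2 fold change over the square root of F, and intervals are 2 standard errors either side. 0 sample columns were without a sample. The code was tested on simulated data. limma 3.58.1, DESeq2 1.42.0, other filters and scalings, counts divided by 4, a replicate block and each sample left out served as alternatives. Symbols, positions, exon lengths and shared exons came from GENCODE v44, promoters from RefSeq.

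The members and lists were chosen with earlier results of these data known. Named genes were the members, AC007128.1, the NRF2 regulators and the other aldo-keto reductases (the sequence neighbours of the members by rule, AKR7A2, AKR7A3 and AKR7L for completeness after their values were seen), and in each other list the 3 called genes with the smallest adjusted p in each direction, or fewer where fewer were called. For nearest profiles a prior count of 2 was used, and the 3 nearest genes were taken for the members with the largest positive and negative fold change. 1 marker gene is not reported here.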

Additional observations from a re-analysis of the deposited data

How the results depend on the processing

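GCLC, HMOX1, NQO1, TXNRD1, SRXN1 and AKR1B10 kept their direction and passed the adjusted p limit in all 14 alternatives that refit the data, and GCLM passed in 0 of them. Their log2 fold changes ranged from -1.75 to -1.66 for GCLC, -2.91 to -2.65 for HMOX1, -0.66 to -0.56 for NQO1, -0.71 to -0.63 for TXNRD1, -1.08 to -0.98 for SRXN1 and 2.07 to 2.46 for AKR1B10. AKR1C1 passed in 9 of 14 and AKR1C2 in 7 of 12, and AKR1C2 gave no value where each sample had to hold 10 counts or counts were divided by 4.

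Testing without the filter on low counts moved the median log2 fold change of all genes from -0.02 to -0.15, a shift of -0.13, and each other setting moved it by less than 0.1. Without the fold limit 3820 genes were lower and 4041 higher. Without that limit, lower and higher genes numbered 2 and 4 of the NRF2 regulators, 11 and 6 of the other NRF2 targets, 3 and 3 of the glutathione genes and 3 and 6 of the NADPH genes; 2 other aldo-keto reductases and 2 heme and iron genes were lower, and 9 thioredoxin and 4 superoxide genes were higher. With glmTreat against a fold of 1.5, 3 members, 1 other aldo-keto reductase, 1 thioredoxin gene, 0 superoxide genes and 1 heme and iron gene were lower. In the glutathione list 0 genes were higher under library size alone, without the filter, with counts divided by 4 or when each sample had to hold 10 counts. With the replicate block 4 members were lower and 1 higher, among 1692 lower and 977 higher genes. The cause was not tested for any of these. Replicates of equal number hardly deviated together from their group means (correlations 0.0306, -0.0254 and -0.0299), which does not show whether they were handled together.

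Leaving out each sample in turn gave 2 to 4 members called lower, 0 to 1 NRF2 regulators called higher, 1 to 2 glutathione genes lower and 0 to 1 higher, 1 to 2 thioredoxin genes lower, 0 to 1 superoxide genes lower and 0 to 1 NADPH genes lower.

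Signs reversed for genes that did not pass the test. With limma-voom AKR1C3 was at -0.067 and MAFK at -0.0037; under the replicate block they were at -0.051 and -0.0013. Scaled by library size alone, MAFK was at -0.043 and AKR7A2 at -0.0006. MAFK was at -0.012 when no gene was filtered and at -0.0029 when each sample had to hold 10 counts. With a sample left out AKR1C3 ranged from -0.57 to 0.39, MAFG from -0.13 to 0.52, MAFK from -0.14 to 0.21, BACH1 from -0.012 to 0.16, NFE2L1 from -0.32 to 0.041, AKR7A2 from -0.13 to 0.32, AKR7A3 from -0.51 to 0.64 and AKR7L from -0.73 to 0.067. The cause was not tested. Counts of AKR1B10, AKR1C1, AKR1C2, AKR1C3 and AC007128.1 were low, and whether depth limited their results was not tested.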
